A study of Mus musculus with 12 samples.

Results

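Sciatic nerve beyond a cut was compared between Tfeb/3 SC-dKO mice and control mice 5 days after transection. The comparison rests on 6 of the 12 libraries of the study, chosen by their titles: replicates 2, 3 and 4 of the dKO group at 5 days and replicates 1, 2 and 4 of the control group at 5 days. The dKO mice were Dhh-Cre+:Tfebflox/flox;Tfe3KO. They lacked Tfe3 in every cell, and their floxed Tfeb was to be deleted by Cre recombinase under the control of Dhh, which Schwann cells and their precursors express. Control mice were Dhh-Cre-:Tfebflox/flox;Tfe3+, so both groups carried floxed Tfeb and only the dKO mice carried Cre. The tissue was the whole distal nerve, with a short piece next to the cut removed, and not sorted Schwann cells. The other 6 libraries, 3 per genotype, came from uncut nerve of the opposite side. The labels call the 3 libraries of a group biological replicates, and they give neither strain, age nor sex. PolyA RNA was made into Ion Torrent libraries.

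TFEB and TFE3 are transcription factors of the MiT/TFE family. They bind a short DNA element called CLEAR, built around the letters CACGTG, in the promoters of genes for lysosomal enzymes, lysosomal membrane proteins and the V-ATPase proton pump that acidifies the lysosome. When an axon is cut, the Schwann cells beyond the cut lose contact with it, shut off myelin genes, divide, digest their own myelin in lysosomes and secrete factors that support regrowing axons. These cells are known as repair Schwann cells. The comparison asked how the nerve at this stage differed when Schwann cells were meant to lack both factors.

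Values below are CPM, a gene's counts relative to the library size as scaled by edgeR. A difference is the log2 of dKO over control with its standard error (SE), fitted over all 12 libraries. Adjusted p-values are Benjamini-Hochberg values of edgeR's quasi-likelihood test over 22384 gene models, with a threshold of 0.05. A gene is called higher or lower only when it passed that test. Because the whole nerve was measured, fewer cells of a type and less RNA per cell cannot be told apart.

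Total counts at 5 days ran from 15430999 to 31176640 per library. Of 1250 olfactory receptor genes, which nerve is not known to use, 174 to 380 had a read at equal depth in control replicate 4 and the 3 dKO libraries, against 53 to 76 in the other 8 libraries of the study. These 4 libraries are called the second library set here. Control replicate 4 was therefore the only control library at 5 days of the same set as the dKO libraries, and the changes were checked against it. Control replicate 1 stood apart as the only largely female pattern at 5 days, with an Xist count of 10712 but also 244 reads on Y-linked genes. The source of these Y-linked reads was not tested. Xist was at most 23 and Y-linked genes were at least 1907 in the other 5.

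Counts of both targeted genes were found in every library. Tfeb (chr17:47737030-47792419) stood at 24.0, 18.2 and 18.4 CPM in controls and 14.2, 19.6 and 29.7 CPM in dKO mice. Tfe3 (chrX:7762560-7775202) stood at 61.7, 67.6 and 55.0 CPM in the control libraries and 52.4, 53.8 and 49.5 CPM in the dKO libraries, so its groups did not overlap. The differences were 0.06 (SE 0.22, adjusted p = 0.883) for Tfeb and -0.24 (SE 0.10, adjusted p = 0.126) for Tfe3, and neither passed. Counts over a whole gene do not show whether an exon is missing. The family members Mitf (0.03, adjusted p = 0.908) and Tfec (-0.42, adjusted p = 0.485) did not pass either.

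Dhh, the gene whose promoter drives the Cre, was higher in dKO nerve. It stood at 70.5, 57.2 and 46.3 CPM in controls and 204, 228 and 207 CPM in dKO mice (1.88, SE 0.15, adjusted p = 2.92e-06), and the dKO mean lay 2.20 above control replicate 4. In intact nerve the groups averaged 373 and 468 CPM. Whether sequence of the Cre transgene adds reads to Dhh was not tested. Exons of Dhh (chr15:98891152-98898540) also overlap those of Rhebl1 and of a predicted gene on the other strand, so part of its reads is uncertain.

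At 5 days 2707 of the 22384 gene models, 12.1%, passed the test. Of these 699 were higher in dKO nerve (3.12%) and 2008 were lower (8.97%). The libraries of both groups did not overlap for 30.5% of all models. The median difference of all models was -0.02. The split depended on the scaling: with upper-quartile factors, which shifted that median by 0.11 to 0.09, 1075 models were higher and 1345 lower, so the share of higher calls went from 25.82% to 44.42%. A difference of at least 1, a change of 2-fold or more, was seen in 267 higher and 549 lower models. Predicted gene models made up 119 of the higher and 401 of the lower calls, and 0 of the calls were olfactory or vomeronasal receptors. In intact nerve 1 model passed (0.00447%).

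Set against control replicate 4 alone, nearly all of these calls kept their side. The dKO mean was above that library for 699 of the 699 higher models and below it for 2003 of the 2008 lower ones. All 3 dKO libraries were above it for 98.43% of higher and below it for 98.41% of lower models. Over all tested models these shares were 29.55% and 30.17%. The difference from control replicate 4 was at least 0.5 of the full difference for 91.7% of higher and 89.34% of lower calls, and the medians were 0.76 against 0.82 and -0.52 against -0.68. Control replicate 4 took part in these calls, so they are tied to it.

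Without control replicate 4 in the fit, 1421 models were higher and 2804 lower in dKO nerve. Of the 1363 and 2795 of these with a value, all 3 dKO libraries lay on the called side of the left-out library for 60.31% of higher and 82.79% of lower models. The difference was at least 0.5 of the full one for 36.32% and 60.68%, and the median went from 1.60 to 0.43 for higher models and from -0.68 to -0.39 for lower ones. Genes called higher from control replicates 1 and 2 alone thus shrank more against control replicate 4 than genes called lower. With the library set as a term in the fit, which compares the dKO libraries with control replicate 4 alone and assumes that it varies like the others, 145 models were higher (0.648%) and 370 lower (1.65%). These included 132 of the 699 and 367 of the 2008 calls, and 0 calls changed side. The rule for naming genes, given with the processing, took 116 genes that passed. Of these 65 passed with the library set as a term. The side of control replicate 4 is no check for the 30 largest changes, since the rule asked for it. The difference from control replicate 4 was under 0.5 of the full one for 5 of the 116: Ptplad1 (-0.15 against -0.40), Ndufc1 (-0.36 against -0.78), Mif (-0.23 against -0.75), Cd8a (2.08 against 4.38) and Myh7 (2.19 against 4.70).

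**Figure D1:**
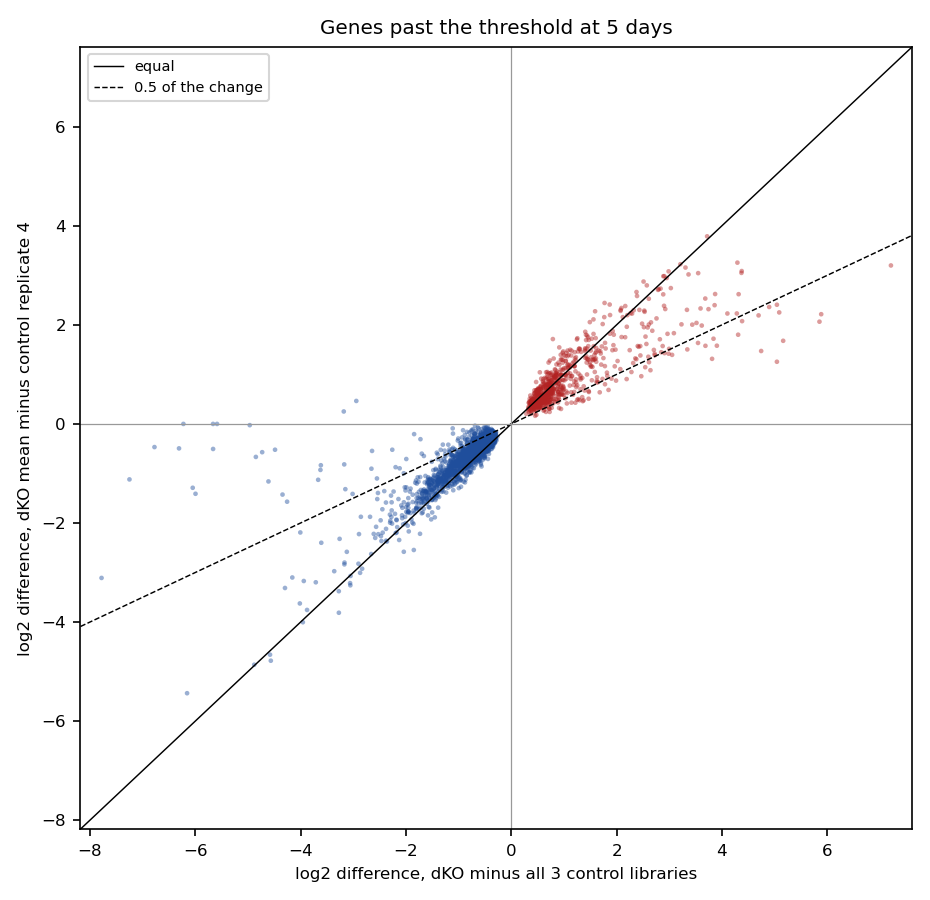
Each point is a gene model that passed the test at 5 days; the x axis is the log2 difference of dKO from all 3 control libraries, the y axis that of the dKO mean from control replicate 4 alone, with lines for equal values and for 0.5 of the difference. Of the 699 higher models (red) 641 lie at or beyond the dashed line, of the 2008 lower models (blue) 1794 do.

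The largest falls among named genes were those of Eef1a2, Hmga2, Atp6v0d2, Lgals3 and Gpnmb. Lgals3 encodes galectin-3, a sugar-binding protein that gathers on damaged lysosomes. It stood at 2367, 2243 and 2031 CPM in the control libraries and 163, 144 and 144 CPM in the dKO libraries, so the highest dKO library was far under the lowest control library. The difference was -3.88 (SE 0.11, adjusted p = 7.79e-11), 14.7-fold lower, and -3.75 against control replicate 4. Gpnmb, a transmembrane glycoprotein of lysosome-laden cells and a known MiT/TFE target, stood at 300, 322 and 374 CPM in controls and 46.6, 43.5 and 29.5 CPM in dKO mice (-3.06, SE 0.19, adjusted p = 4.91e-07). Here control replicate 4 was the highest control library, and the difference from it was -3.26.

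Eef1a2, a translation elongation factor of neurons and muscle, stood at 32.5, 62.0 and 56.4 CPM in the control libraries and 1.78, 1.14 and 3.81 CPM in the dKO libraries (-4.57, SE 0.37, adjusted p = 1.03e-05). Hmga2, a chromatin protein of fetal tissue, stood at 235, 166 and 136 CPM in controls and 13.1, 8.84 and 11.3 CPM in dKO mice (-4.01, SE 0.26, adjusted p = 1.68e-06). In both cases the groups were far apart, and the difference from control replicate 4 was -4.78 for Eef1a2 and -3.62 for Hmga2. The other large falls were Igfbp2, which binds insulin-like growth factors (-2.83), Fgfbp3, which binds fibroblast growth factors (-2.66), C1ql3 (-2.61), Crym (-2.58), Car2, a carbonic anhydrase (-2.52), Aspa, which splits N-acetylaspartate (-2.46), Dusp10, a phosphatase of stress kinases (-2.38), and Sytl2, an effector of Rab27 (-2.36). All of these passed with each library left out in turn. C1ql3 shares 61% of its exon length with a predicted gene on the other strand, so its reads are uncertain.

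Gzmb and Sgsm1 were less stable. Gzmb, granzyme B of killer lymphocytes, stood at 266, 93.7 and 64.8 CPM in the control libraries and 29.4, 9.20 and 20.2 CPM in the dKO libraries (-2.85, SE 0.64, adjusted p = 0.0213). Its adjusted p was 0.0520 without control replicate 1, 0.0709 without dKO replicate 3 and 0.0649 without dKO replicate 4. Sgsm1 (-2.30, adjusted p = 0.0181) had 0.0531 without control replicate 1 and 0.0649 without dKO replicate 4.

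The largest rises were those of Spnb5, Ncmap and Nptx2. Spnb5, now named Sptbn5, a very large beta spectrin, stood at 1.53, 4.56 and 2.75 CPM in controls and 37.7, 41.6 and 37.5 CPM in dKO mice (3.72, SE 0.33, adjusted p = 3.75e-05). Ncmap, a small protein of noncompact myelin, stood at 2.88, 1.16 and 3.33 CPM in the control libraries and 35.6, 26.6 and 23.0 CPM in the dKO libraries (3.55, SE 0.33, adjusted p = 5.54e-05). Both lay far below intact dKO nerve, where Spnb5 averaged 751 CPM and Ncmap 828 CPM. Nptx2, a pentraxin that clusters receptors at synapses, had another pattern: it averaged 0.95 and 0.94 CPM in intact control and dKO nerve and stood at 4.67, 3.21 and 4.52 CPM in injured control nerve and 40.9, 42.8 and 38.9 CPM in injured dKO nerve (3.31, SE 0.20, adjusted p = 1.92e-07). The highest control library was below the lowest dKO library for all 3 genes.

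The remaining large rises included Cdsn, corneodesmosin (2.92), Cdh1, the E-cadherin of myelin loops (2.79), Sostdc1, an inhibitor of BMP and Wnt signalling (2.57), Kif19a, a kinesin (2.53), Egfl8 (2.51), Hbegf, a ligand of the EGF receptor (2.38), and Ephb6, an Eph receptor without kinase activity (2.33). Against control replicate 4 these 7 genes differed by 2.26 to 2.87. All passed with each library left out. Egfl8 shares 34.9% of its exon length with a predicted gene on its strand. Cxcl14, a chemokine, stood at 74.5, 100 and 96.4 CPM in controls and 624, 736 and 574 CPM in dKO mice (2.83, SE 0.56, adjusted p = 0.0119), with an adjusted p of 0.0590 without control replicate 1.

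**Figure D2:**
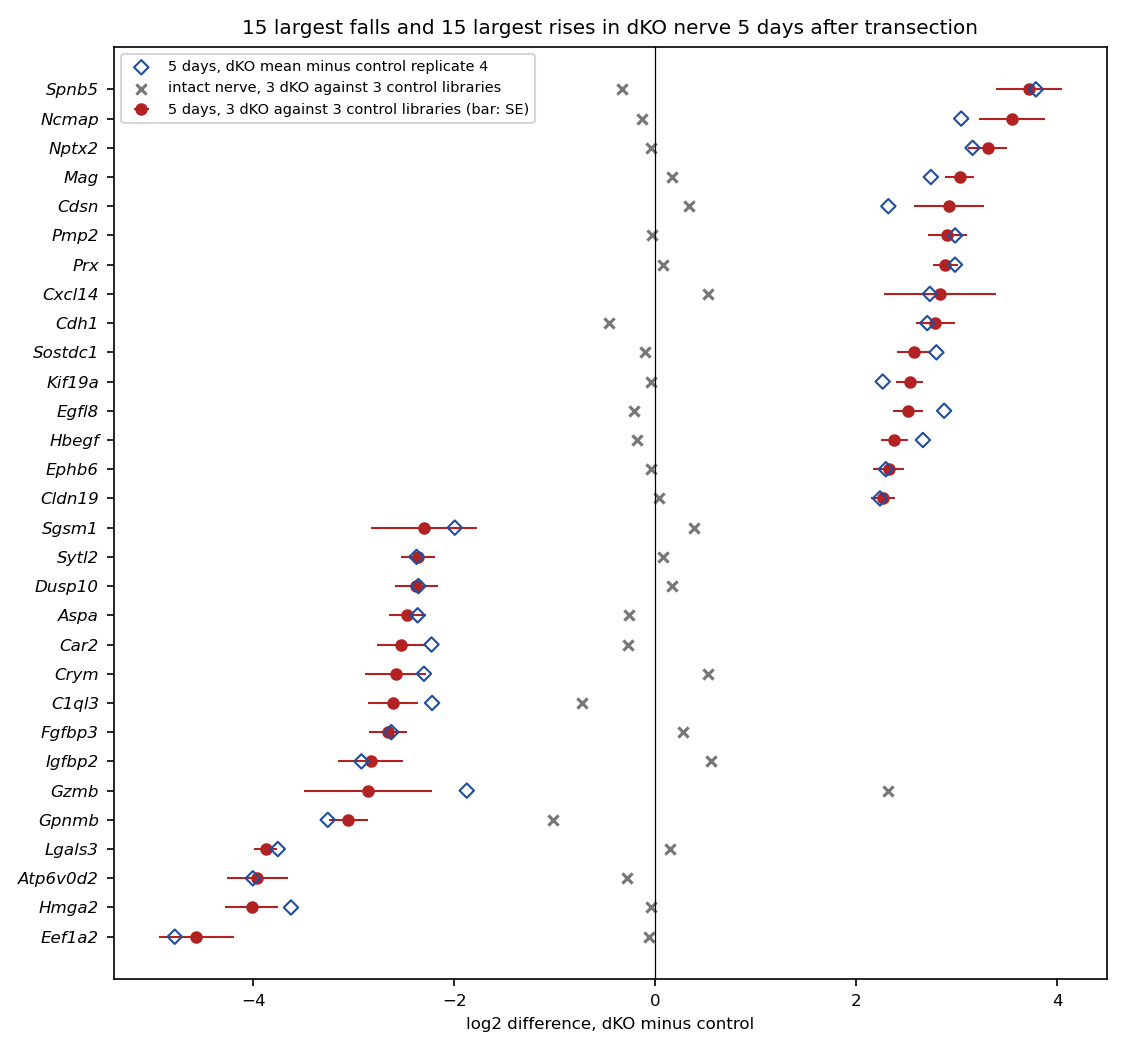
The 15 largest falls and rises at 5 days; the x axis is the log2 difference of dKO from control, with the fitted value and its SE at 5 days (red), the difference from control replicate 4 alone (blue) and the difference in intact nerve (grey). The fitted values run from Eef1a2 at -4.57 to Spnb5 at 3.72; the naming rule asked for at least 0.5 of the change against control replicate 4, so the side of the blue points was fixed by the choice of genes.

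Lysosomal genes were lower in dKO nerve. Of 49 tested lysosomal hydrolases and their partners 19 were lower and 0 higher (median -0.27), and of 33 lysosomal membrane proteins 21 were lower and 0 higher (median -0.48). Of 21 V-ATPase subunits and partners 17 were lower and 0 higher (median -0.54). Over all models 8.97% were lower and the median was -0.02. With each library left out in turn the counts were 16 to 20, 16 to 21 and 14 to 17. A term for the library set left 11, 10 and 6 members lower and 0 higher. Under upper-quartile factors 17, 16 and 16 were lower and 1, 1 and 0 higher.

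Among the lower genes with a promoter sequence, 3 hydrolases, 6 membrane proteins and 3 V-ATPase genes held TCACGTGA, which contains CACGTG. The promoters of 4 such genes are shown. They are the 4 lower lysosomal genes with the smallest adjusted p whose 250 bases before the start hold TCACGTGA, taken from RefSeq (build GRCm38.p6) and written 5′ to 3′ on the gene's strand. They lie at chrX:134601006-134601255 (Gla, minus strand), chr3:67582518-67582767 (Mfsd1, plus), chr7:142387828-142388077 (Ctsd, minus) and chr8:3500269-3500518 (Mcoln1, plus). Capitals mark TCACGTG, searched on both strands, which reads CACGTGA on the other strand; TCACGTGA is the overlap of both readings.
Gla: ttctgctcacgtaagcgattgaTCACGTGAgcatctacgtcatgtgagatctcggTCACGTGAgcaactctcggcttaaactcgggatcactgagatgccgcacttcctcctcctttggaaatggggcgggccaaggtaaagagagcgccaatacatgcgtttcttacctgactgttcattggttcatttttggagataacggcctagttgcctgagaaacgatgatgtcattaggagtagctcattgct
Mfsd1: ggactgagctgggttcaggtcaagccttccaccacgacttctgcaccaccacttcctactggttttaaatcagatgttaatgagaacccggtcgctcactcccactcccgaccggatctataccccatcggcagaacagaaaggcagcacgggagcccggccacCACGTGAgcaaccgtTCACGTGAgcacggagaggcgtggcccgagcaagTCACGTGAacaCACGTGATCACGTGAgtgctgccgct
Ctsd: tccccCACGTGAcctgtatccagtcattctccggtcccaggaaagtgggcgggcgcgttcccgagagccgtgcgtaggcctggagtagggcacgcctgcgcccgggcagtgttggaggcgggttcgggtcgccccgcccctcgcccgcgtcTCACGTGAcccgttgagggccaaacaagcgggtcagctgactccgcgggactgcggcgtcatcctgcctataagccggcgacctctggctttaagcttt
Mcoln1: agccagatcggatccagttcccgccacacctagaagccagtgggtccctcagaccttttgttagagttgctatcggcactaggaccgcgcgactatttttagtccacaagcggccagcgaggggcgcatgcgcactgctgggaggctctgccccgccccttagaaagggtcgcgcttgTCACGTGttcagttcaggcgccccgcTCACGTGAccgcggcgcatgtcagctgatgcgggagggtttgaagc
Gla holds 2 such sites, Mfsd1 5, Ctsd 2 and Mcoln1 2, and the site nearest to the start is centred 191, 15, 95 and 42 bases before it. Over all 13879 tested models with a RefSeq promoter (250 bases before to 50 after the start) 6.03% held TCACGTG and 1.75% TCACGTGA. Among the 1352 models lower in dKO nerve these shares were 9.32% and 3.70%, and among the 459 higher ones 3.92% and 1.09%. Among the 344 models lower by at least 1 they were 4.65% and 1.74%, so the larger falls did not hold the motif above the share of all models. Of the lysosomal hydrolases 28.21% (11 of 39) held TCACGTG, against 23.08% (3 of 13) of those that were lower. It was held by 29.63% (8 of 27) of the membrane proteins and 43.75% (7 of 16) of the lower ones, and by 26.67% (4 of 15) of the V-ATPase genes and 33.33% (4 of 12) of the lower ones. Of the 30 mitosis promoters described further on 1 held it, as did 1 of 25 myelin promoters. These shares are descriptions with no test, and a match is not a shown binding site.

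Among the enzymes, Gla encodes alpha-galactosidase A, which removes galactose from globotriaosylceramide. It stood at 32.8, 40.0 and 37.4 CPM in the control libraries and 9.42, 11.3 and 8.84 CPM in the dKO libraries (-1.90, SE 0.17, adjusted p = 7.38e-06). Lipa, the acid lipase that frees cholesterol from its esters, stood at 377, 329 and 322 CPM in controls and 102, 103 and 91.3 CPM in dKO mice (-1.80, SE 0.10, adjusted p = 1.22e-07). Psap, the precursor of the saposins that present sphingolipids to their hydrolases, stood at 6144, 6338 and 5499 CPM in the control libraries and 1566, 1573 and 2051 CPM in the dKO libraries (-1.79, SE 0.12, adjusted p = 5.17e-07). In injured dKO nerve all 3 genes lay nearer to the intact level than to injured control nerve. The intact level was 7.98 and 6.53 CPM (control and dKO) for Gla, 91.7 and 89.0 for Lipa and 1391 and 1439 for Psap. For Gla and Psap every injured dKO library was above both intact values. Against control replicate 4 the 3 genes differed by -1.93, -1.71 and -1.68.

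Smaller falls were spread over the degradation of proteins, sugars and lipids. Cathepsin D, Ctsd, stood at 2162, 2136 and 2205 CPM in controls and 1181, 1224 and 1326 CPM in dKO mice (-0.80, adjusted p = 0.000277). Tpp1, a peptidase (-0.98), Hexa, which degrades gangliosides (-0.76), and Galc, which degrades the myelin lipid galactosylceramide (-0.76), were lower too. Other members did not pass: Ctsk was at 0.46 (adjusted p = 0.0692) with dKO libraries above control ones. Cathepsin B, Ctsb (-0.53, adjusted p = 0.0124), had an adjusted p of 0.0510 without dKO replicate 2.

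Among membrane proteins the largest fall was Gpr137b, a lysosomal regulator of mTORC1, at 228, 197 and 168 CPM in the control libraries and 65.0, 52.5 and 54.4 CPM in the dKO libraries (-1.79, SE 0.14, adjusted p = 2.31e-06). Scarb2, the receptor that carries glucocerebrosidase to lysosomes (-1.37), Abcb9, a peptide transporter (-1.33), Npc1, which exports cholesterol (-1.15), Mfsd1, a dipeptide transporter (-0.98), Mcoln1, the calcium channel of lysosomes (-0.62), and Lamp1 (-0.61) were lower. For all 6 the groups did not overlap, and each passed with every library left out. Against control replicate 4, 28 of the 33 members had a dKO mean below it and 5 above it.

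Lower V-ATPase genes came from both the cytoplasmic and the membrane sector. Atp6v0d2, a subunit of the membrane sector best known in osteoclasts and macrophages, stood at 69.5, 80.7 and 74.7 CPM in controls and 3.23, 6.72 and 4.45 CPM in dKO mice (-3.96, SE 0.30, adjusted p = 4.01e-06), 15.5-fold lower. Atp6v1b2, a subunit of the cytoplasmic sector that splits ATP, stood at 223, 242 and 208 CPM in the control libraries and 99.8, 108 and 111 CPM in the dKO libraries (-1.08, SE 0.09, adjusted p = 5.19e-06). Atp6v1g1 (-0.94) and Atp6v0b (-0.82) were lower as well. Atp6v0c (-0.81) was lower too, but it has near-identical pseudogene copies and its counts are uncertain. Tcirg1 (-0.38, adjusted p = 0.0730) did not pass. Atp6v0d2 aside, the lower members ran from Atp6v0e (-0.39) to Atp6v1b2 (-1.08).

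Genes of lipid-laden phagocytes were lower in part. Of 26 tested members 11 were lower (42.31%, against 8.97% of all models) and 0 higher (median -0.34). The count of lower members was 10 to 11 when each library was left out and 6 with the library set as a term. Under upper-quartile factors 10 were lower and 1 higher. Besides Lgals3 and Gpnmb the 11 lower members included Nceh1, a cholesterol ester hydrolase (-1.69, SE 0.12, adjusted p = 9.07e-07). It stood at 128, 124 and 96.6 CPM in controls and 34.8, 35.2 and 38.4 CPM in dKO mice. Abca1, which exports cholesterol (-1.39), Fabp5, a fatty acid carrier (-1.20), Soat1, which esterifies cholesterol (-0.92), and Plin2 of lipid droplets (-0.89) were lower members too. Trem2, a lipid receptor of macrophages, was at -0.27 (adjusted p = 0.474), Apoe at -0.12 (adjusted p = 0.651) and Spp1 at 0.14 (adjusted p = 0.918). Of 28 macrophage markers 1 was higher, Cd14, and 1 lower; the median was -0.02 and changed sign under the other scalings (0.01 to 0.08), and their summed level was 2291, 2948 and 3708 CPM in controls and 2444, 3137 and 2690 CPM in dKO mice. Against control replicate 4 the dKO mean was below for 21 of the 28 and above for 7 (median -0.25), and 0 passed with the library set as a term. Their part in the lower phagocyte genes was not tested. Cd14 passed in 1 of the 6 fits that leave out 1 library each. The lower macrophage marker, Cd68 (-0.87, adjusted p = 0.0373), is a lysosomal membrane protein, and its adjusted p was 0.0520 to 0.131 in the 5 of 6 fits that lost it, all but the one without dKO replicate 3.

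**Figure D3:**
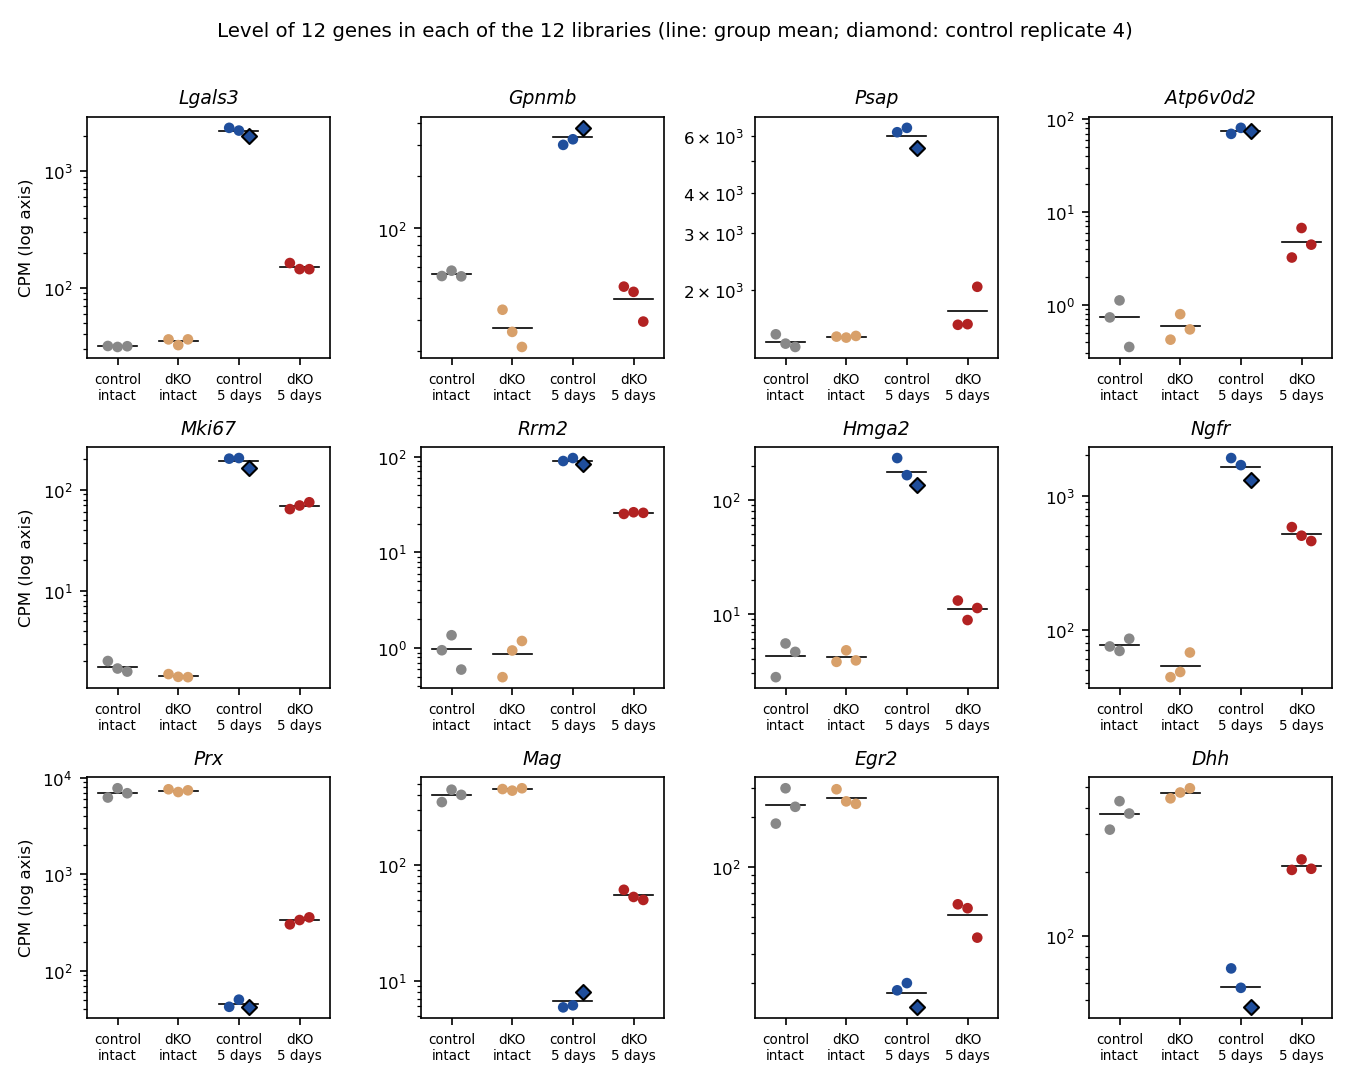
CPM of 12 genes (log axes) in each of the 12 libraries, by group, with the group mean as a line and control replicate 4 at 5 days as a diamond. In the 5-day groups the dKO libraries lie below all control libraries for the 8 genes from Lgals3 (163 CPM at most against at least 2031) to Ngfr and above them for Prx, Mag, Egr2 and Dhh.

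Of 46 autophagy genes 7 were lower (15.22%, against 8.97% of all models) and 0 higher. The median was -0.10, 0.01 under upper-quartile factors and 0.01 against control replicate 4, and with the library set as a term 0 passed. Without control replicate 4 the count of lower genes was 11. Sqstm1, the cargo receptor p62, stood at 601, 543 and 521 CPM in the control libraries and 360, 342 and 392 CPM in the dKO libraries (-0.61, SE 0.11, adjusted p = 0.00337). Rab7, which guides late endosomes (-0.57), Vps18 (-0.47) and Atg3 (-0.42) were lower. Map1lc3b, which encodes the LC3B of autophagosome membranes, stood at 194, 148 and 126 CPM in controls and 136, 124 and 99.5 CPM in dKO mice, with overlapping groups (-0.38, adjusted p = 0.106).

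Of 35 genes for folliculin, the Rag GTPases and other regulators of mTORC1, which controls where TFEB and TFE3 reside, 7 were lower and 1 higher (median -0.15). These are 20.0% and 2.86%, against 8.97% and 3.12% of all models. The count of lower genes was 4 without control replicate 2 or dKO replicate 2 and 3 without dKO replicate 3, and 0 passed with the library set as a term. Fnip1, a folliculin partner, stood at 62.7, 43.2 and 35.1 CPM in the control libraries and 22.6, 22.0 and 21.6 CPM in the dKO libraries (-1.09, SE 0.19, adjusted p = 0.00164). Flcn, folliculin itself, was at -0.60 (adjusted p = 0.00631). Rragd, a Rag GTPase and known MiT/TFE target, was low throughout, at 6.29, 8.27 and 5.34 CPM against 3.62, 2.14 and 1.68 CPM (-1.40, adjusted p = 0.0119), and had an adjusted p of 0.0518 without control replicate 2 and 0.0612 without dKO replicate 3. The higher member, Mtor (0.85, adjusted p = 0.0121), had 0.0521 without control replicate 2.

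Genes of cell division were lower almost without exception. Of 36 mitosis genes 35 were lower and 0 higher (median -1.45). Of 36 genes of the G1/S step and DNA replication 31 were lower and 0 higher (median -1.05). The lower shares were 97.22% and 86.11%, against 8.97% of all models, whose median was -0.02. The mitosis gene that did not pass was Ube2c (-1.41, adjusted p = 0.174), named after its value was seen. For all 36 genes of each list the dKO mean was below control replicate 4 (medians -1.20 and -0.74). With the library set as a term 16 and 7 passed, all of them lower. With each library left out the counts were 31 to 34 and 27 to 32.

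Mki67, the Ki-67 protein of dividing cells, stood at 204, 206 and 165 CPM in controls and 64.4, 69.9 and 75.3 CPM in dKO mice (-1.46, SE 0.11, adjusted p = 1.68e-06). Racgap1, which drives the final split of daughter cells, stood at 118, 134 and 112 CPM against 37.2, 40.0 and 42.3 CPM (-1.61, SE 0.11, adjusted p = 8.79e-07). Rrm2, which makes deoxynucleotides for DNA synthesis, stood at 89.9, 96.6 and 83.5 CPM against 25.2, 26.2 and 25.9 CPM (-1.80, SE 0.20, adjusted p = 6.04e-05). Control replicate 4 was the lowest control library for these 3 genes and still lay above every dKO library. In intact nerve Mki67 averaged 1.76 CPM in the control libraries and 1.43 CPM in dKO mice, so injured dKO nerve lay between the intact and the injured control level.

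The cyclins and kinases of mitosis, Ccnb1 (-2.00) and Cdk1 (-1.75), the spindle proteins Prc1 (-1.53) and Cenpe (-1.87), and the kinase Pbk (-1.72) were lower. In the replication group the loading factors Cdt1 (-1.53) and Cdc45 (-1.40), the helicase subunit Mcm5 (-1.08) and the transcription factor E2f1 (-1.32) were lower. Pcna (-1.12), the sliding clamp, was lower as well, with counts that are uncertain because of pseudogene copies. The 5 replication genes that did not pass were Pola1 (-0.30), Slbp (-0.37), Cdc25a (-0.49), E2f2 (-0.57) and Cdc6 (-0.99).

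Myelin genes were the group with the most higher members. Of 38 tested 21 were higher and 3 lower (median 0.86), where 3.12% of all models were higher. For 31 of the 38 the dKO mean was above control replicate 4, and 17 were higher and 0 lower with the library set as a term. The count of higher genes was 20 to 22 with each library left out.

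Pmp22, a tetraspan protein of compact myelin, stood at 239, 230 and 269 CPM against 961, 895 and 682 CPM (1.78, SE 0.15, adjusted p = 6.40e-06). Mbp, which compacts the cytoplasmic faces, stood at 388, 339 and 247 CPM against 685, 759 and 569 CPM (1.05, SE 0.17, adjusted p = 0.00117). For both genes every dKO library was above every control library.

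Proteins of noncompact myelin and of the membrane next to the axon also differed. Mag, the myelin-associated glycoprotein, stood at 5.89, 6.13 and 8.05 CPM in controls and 60.9, 52.8 and 49.7 CPM in dKO mice (3.03, SE 0.14, adjusted p = 2.84e-08). Prx, periaxin, which links the outer Schwann cell membrane to the basal lamina, stood at 42.3, 50.2 and 41.8 CPM against 302, 335 and 357 CPM (2.89, SE 0.12, adjusted p = 1.27e-08), with intact means of 6945 and 7337 CPM. Its partner Drp2 (2.17), the tight junction protein Cldn19 (2.27), the gap junction protein Gjb1 (1.12) and the hydroxylase of myelin lipids Fa2h (2.89) were higher. Pmp2, the fatty acid carrier of peripheral myelin, stood at 69.9, 83.1 and 70.2 CPM against 606, 572 and 495 CPM (2.90, SE 0.19, adjusted p = 5.36e-07), and so lay near its intact level of 752 and 734 CPM. A predicted gene on the same strand shares 86.9% of the Pmp2 exon length, so its reads are uncertain.

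Of the regulators of myelination, Egr2 (Krox20), which activates myelin genes, was higher at 59.6, 56.4 and 37.4 CPM in dKO against 18.0, 19.9 and 14.2 CPM in control nerve (1.56, SE 0.21, adjusted p = 0.000319). The 3 lower members were Pou3f1 (Oct6, -0.74), Sox10 (-0.73) and Ugt8a, which makes galactosylceramide (-0.64). Sox10 stood at 391, 291 and 223 CPM in the control libraries and 204, 196 and 144 CPM in the dKO libraries (adjusted p = 0.0162), with an adjusted p of 0.0727 without control replicate 1 and 0.0652 without dKO replicate 4, and its difference from control replicate 4 was -0.31. Ugt8a (adjusted p = 0.0344) passed in 2 of the 6 fits that leave out 1 library each, with adjusted p-values up to 0.146. The count of lower myelin genes was 1 without control replicate 1 or dKO replicate 4. Cnp (-0.31, adjusted p = 0.102) did not pass. Over all models 8.97% were lower and 3.12% higher. Of 25 cholesterol synthesis genes 2 were lower (8.0%) and 0 higher (median -0.07, and 0.04 under upper-quartile factors). Of 22 fatty acid synthesis genes 2 were lower (9.09%) and 1 higher (4.5%), with a median of 0.04. These counts of 1 or 2 moved to 0 to 3 with single libraries left out, for example the lower cholesterol genes to 1 without dKO replicate 3. The higher fatty acid gene, Elovl1, passed in 1 of the 6 fits that leave out 1 library each. It was lost without control replicate 1, 2 or 4 and without dKO replicate 2 or 3.

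Genes of repair Schwann cells were mixed. Of 41 tested 15 were lower (36.59%, against 8.97% of all models) and 2 higher (4.88%, against 3.12%), with a median of -0.35. Against control replicate 4 the dKO mean was below for 23 and above for 18. In the fit with the library set 9 were lower and 1 higher. The count of higher members was 1 without any 1 dKO library. Ngfr, the p75 neurotrophin receptor, stood at 1905, 1687 and 1315 CPM in controls and 582, 502 and 458 CPM in dKO mice (-1.67, SE 0.17, adjusted p = 3.13e-05). Sox2, a factor of immature Schwann cells, stood at 175, 128 and 121 CPM against 62.6, 55.6 and 59.1 CPM (-1.26, SE 0.15, adjusted p = 0.000102). Megf10, an engulfment receptor (-1.61), the injury factors Atf3 (-1.67) and Runx2 (-1.38), and the adhesion molecule Cdh2 (-1.39) were lower.

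Jun, which encodes the central transcription factor of the repair programme, stood at 548, 491 and 463 CPM in the control libraries and 295, 297 and 291 CPM in the dKO libraries (-0.77, SE 0.13, adjusted p = 0.00119). Its groups did not overlap, and in intact nerve it averaged 66.1 and 68.8 CPM. Shh, the hedgehog ligand made by injured Schwann cells, stood at 292, 348 and 294 CPM against 239, 228 and 270 CPM and did not pass (-0.34, adjusted p = 0.249). Tnc, a matrix protein, was at 0.08 (adjusted p = 0.776) with overlapping groups.

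Ligands and receptors that support neurons moved both ways. Of 37 tested 6 were lower (16.22%, against 8.97% of all models) and 7 higher (18.92%, against 3.12%), with a median of 0.11. A term for the library set left 3 lower and 2 higher, and the dKO mean was below control replicate 4 for 14 and above it for 23 (median 0.21). Gdnf, a survival factor for motor neurons, stood at 175, 133 and 113 CPM in controls and 54.2, 41.5 and 47.8 CPM in dKO mice (-1.55, SE 0.23, adjusted p = 0.000917), and its receptor Gfra1 was at -0.98 (adjusted p = 0.000189). Ptn, pleiotrophin, stood at 138, 107 and 95.0 CPM against 25.4, 29.7 and 19.9 CPM (-2.18, SE 0.20, adjusted p = 1.81e-05). Clcf1, a cytokine of the CNTF family, was lower (-0.85, adjusted p = 0.000947). Bdnf (-0.65, adjusted p = 0.464) did not pass. The genes given here by name were lower or did not pass, so the 7 higher members are not among them. The count of higher genes was 4 without dKO replicate 3.

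Of 19 hedgehog pathway genes 5 were higher (26.32%, against 3.12% of all models) and 0 lower (median 0.64). They were Dhh, Scube3, which helps to release the ligand (1.52), the receptor Ptch1 (0.98) and the transcription factors Gli3 (0.79) and Gli1 (0.82). Ptch1 stood at 11.7, 19.5 and 9.94 CPM in the control libraries and 24.6, 27.0 and 29.8 CPM in the dKO libraries (adjusted p = 0.00969), with an adjusted p of 0.0578 without control replicate 1. Gli1 passed in 0 of the 6 fits that leave out 1 library each (adjusted p 0.0588 to 0.121) and Gli3 in 2. The count was 2 without control replicate 1 and 3 when control replicate 2 or 1 of dKO replicates 3 and 4 was left out. With the library set as a term Dhh and Ptch1 were higher.

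Of 27 genes of the integrated stress response and amino acid synthesis 9 were higher and 1 lower (median 0.30). These are 33.33% and 3.70%, against 3.12% and 8.97% of all models. The count of higher genes was 8 whichever library was left out. Under the term for the library set 1 was higher. Aldh1l2, a folate enzyme of mitochondria, stood at 2.10, 3.49 and 3.57 CPM in controls and 8.76, 8.70 and 8.38 CPM in dKO mice (1.50, SE 0.26, adjusted p = 0.00176). Pycr1, the last step of proline synthesis (0.98), Phgdh, the first step of serine synthesis (0.83), Asns (0.91), the amino acid transporter Slc7a5 (1.28), and the stress genes Trib3 (1.60) and Ddit3 (0.82) were higher. Atf4, the factor upstream of these genes, was at 0.30 (adjusted p = 0.0932).

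The library set as a term left 0 of the energy metabolism calls. Without it 2 of 36 oxidative phosphorylation genes were lower (5.56%) and 0 higher (median -0.08, and 0.03 under upper-quartile factors). Of 23 glycolysis genes 4 were lower (17.39%) and 1 higher (4.35%), with a median of -0.14. Over all models 8.97% were lower and 3.12% higher. Of 25 ERK feedback and immediate early genes 3 were lower and 1 higher (median 0.06), the higher one being Egr2. Dusp4, a phosphatase of ERK, was at -0.89 (adjusted p = 0.00903). The count of lower oxidative phosphorylation genes was 5 without control replicate 4, 1 without control replicate 1, control replicate 2 or dKO replicate 2 and 0 without dKO replicate 3. The count of lower glycolysis genes fell to 2 when control replicate 1, dKO replicate 2 or else dKO replicate 3 was left out.

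Collagens were higher in 14 of 27 cases (51.85%, against 3.12% of all models) and lower in 1 (median 0.56). This count was sensitive to single libraries: it was 7 without control replicate 1, 9 without dKO replicate 2, 6 without dKO replicate 3 and 8 without dKO replicate 4, and 2 passed with the library set as a term. Those 2 were Col5a3 and Col16a1. Both passed with each library left out in turn, as did Col4a1, Col4a2 and Col5a1. Col5a3, a chain of type V collagen, stood at 205, 225 and 222 CPM in the control libraries and 473, 497 and 528 CPM in the dKO libraries (1.20, SE 0.10, adjusted p = 5.19e-06). Col16a1 stood at 144, 173 and 122 CPM against 275, 313 and 278 CPM (0.98, SE 0.14, adjusted p = 0.000491). Of 22 fibroblast markers 3 were higher (1 without dKO replicate 4), with a median of 0.26 and summed levels of 21500 to 24270 CPM in controls and 26190 to 27700 CPM in dKO mice. Their part in the collagen difference was not tested.

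Of 28 metalloproteinases and inhibitors 3 were higher (10.71%, against 3.12% of all models) and 4 lower (14.29%, against 8.97%), with a median of 0.01. Under the library set as a term 0 were higher and 1 lower. Adamts5, which cleaves aggrecan and versican, stood at 188, 271 and 192 CPM in the control libraries and 84.0, 81.2 and 82.8 CPM in the dKO libraries (-1.39, SE 0.17, adjusted p = 9.99e-05). Adamts4 (-0.99) and Mmp19 (-0.61) were lower, and Mmp15 (0.66) and the inhibitor Timp1 (0.97) were higher. The count of higher genes was 5 without dKO replicate 4.

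Immune genes passed in shares near or below those of all models, of which 3.12% were higher and 8.97% lower. Chemokines and cytokines were higher in 3.03% and lower in 9.09%, and complement and phagocytosis genes in 3.125% and 6.25%. For MHC class II presentation the shares were 0% and 7.14%. Of 33 chemokines and cytokines 1 was higher, Cxcl14, and 3 were lower (median 0.06), with 1 lower in each of the fits without control replicate 1, without control replicate 2, without dKO replicate 3 and without dKO replicate 4. Tgfb1 stood at 154, 135 and 120 CPM in controls and 82.4, 75.8 and 67.6 CPM in dKO mice (-0.86, SE 0.14, adjusted p = 0.00133). Ccl2, which draws monocytes, stood at 53.0, 33.6 and 29.5 CPM against 23.6, 48.6 and 33.7 CPM, with overlapping groups (-0.13, adjusted p = 0.866). Of 32 complement and phagocytosis genes 2 were lower, Megf10 and Pros1 (-0.81), the ligand of TAM receptors, and 1 was higher, Lrp1 (median -0.10, and 0.01 under upper-quartile factors). Lrp1 was a call that single libraries decided, since the count was 0 in 5 of the 6 fits that leave out 1 library and 2 without control replicate 4. Of 14 genes of MHC class II presentation 1 was lower, Ifi30, and 0 higher (median 0.24). Ifi30 passed in 2 of the 6 fits that leave out 1 library each. It was lost without control replicate 1 or 2 and without dKO replicate 2 or 3. The library set as a term left 0 chemokines and cytokines, 0 genes of MHC class II presentation and the 2 lower complement and phagocytosis genes.

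Markers of Schwann cells did not move as a block. Of 17 tested 7 were lower (41.18%, against 8.97% of all models) and 2 higher (11.76%, against 3.12%), with a median of -0.29. Their summed level was 3754 to 5409 CPM in the control libraries and 4039 to 4844 CPM in the dKO libraries, so the sums overlapped. Against control replicate 4 the dKO mean was below for 8 and above for 9 (median 0.00), and with the library set as a term 5 were lower and 2 higher. S100b stood at 455, 550 and 381 CPM in controls and 154, 136 and 228 CPM in dKO mice (-1.42, SE 0.20, adjusted p = 0.000589), and Foxd3 (-1.25) and Cdh19 (-1.42) were lower. Erbb3, the neuregulin receptor, stood at 134, 122 and 95.1 CPM against 88.8, 108 and 90.0 CPM (-0.29, adjusted p = 0.308), and Dhh was among the higher markers. S100b, Sox10 and Ngfr, all lower in dKO nerve, were still well above 0 in every library, whereas Mia1 stood at 0 to 0.578 CPM at 5 days.

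Other cell types gave at most 3 calls per list, and with the library set as a term 0 markers of any of them passed. Endothelial, perineurial, vessel wall and muscle lists had higher shares from 8.33% (vessel wall) to 17.65% (endothelial), against 3.12% of all models. Of the markers of T and NK lymphocytes 5.88% were higher and 5.88% lower, against 3.12% and 8.97% of all models. Of 17 endothelial markers 3 were higher and 0 lower (median 0.53). For all 17 the dKO mean was above control replicate 4 (median 0.46). For 12 of the 17 the dKO libraries lay above all control libraries, as they did for 12.6% of all models. Vwf was among the 3 (0.75, adjusted p = 0.0214). Its adjusted p was 0.0940 without control replicate 1 and 0.0972 without dKO replicate 2. The count of higher endothelial markers was 0 without control replicate 1 or dKO replicate 2 and 1 without control replicate 4. Of 10 perineurial markers 1 was higher (median 0.61), and 0 without control replicate 2, without control replicate 4, without dKO replicate 3 or without dKO replicate 4. Of 12 vessel wall markers 1 was higher (median 0.79). Their summed level was 769 to 1092 CPM in the control libraries and 3932, 982 and 1480 CPM in the dKO libraries, where dKO replicate 2 stood out with 1109 CPM of Acta2, smooth muscle actin. Muscle markers had a median of 1.40 with 2 of 15 higher (0 without control replicate 1 or dKO replicate 4, 5 without control replicate 4), and dKO replicate 4 held 113 CPM of them against 16.1 to 35.9 CPM in the other 5 libraries. Of 17 markers of T and NK lymphocytes 1 was lower, Gzmb, and 1 higher, Cd8a, which stood at 0 to 0.809 CPM at 5 days and passed in 1 of the 6 fits that leave out 1 library each. Their sum, Gzmb included, was 285.5, 108.5 and 82.4 CPM in controls and 43.0, 28.95 and 37.7 CPM in dKO mice. By edgeR and by DESeq2, 0 markers of neutrophils (8 tested), B lymphocytes (6), mast cells (11), fat cells (10) or red cells (3) passed, and 0 had an unadjusted p under 0.05. Red cell genes summed to 7962 CPM in control replicate 1 against 176 to 1220 CPM in the other 5 libraries.

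**Figure D4:**
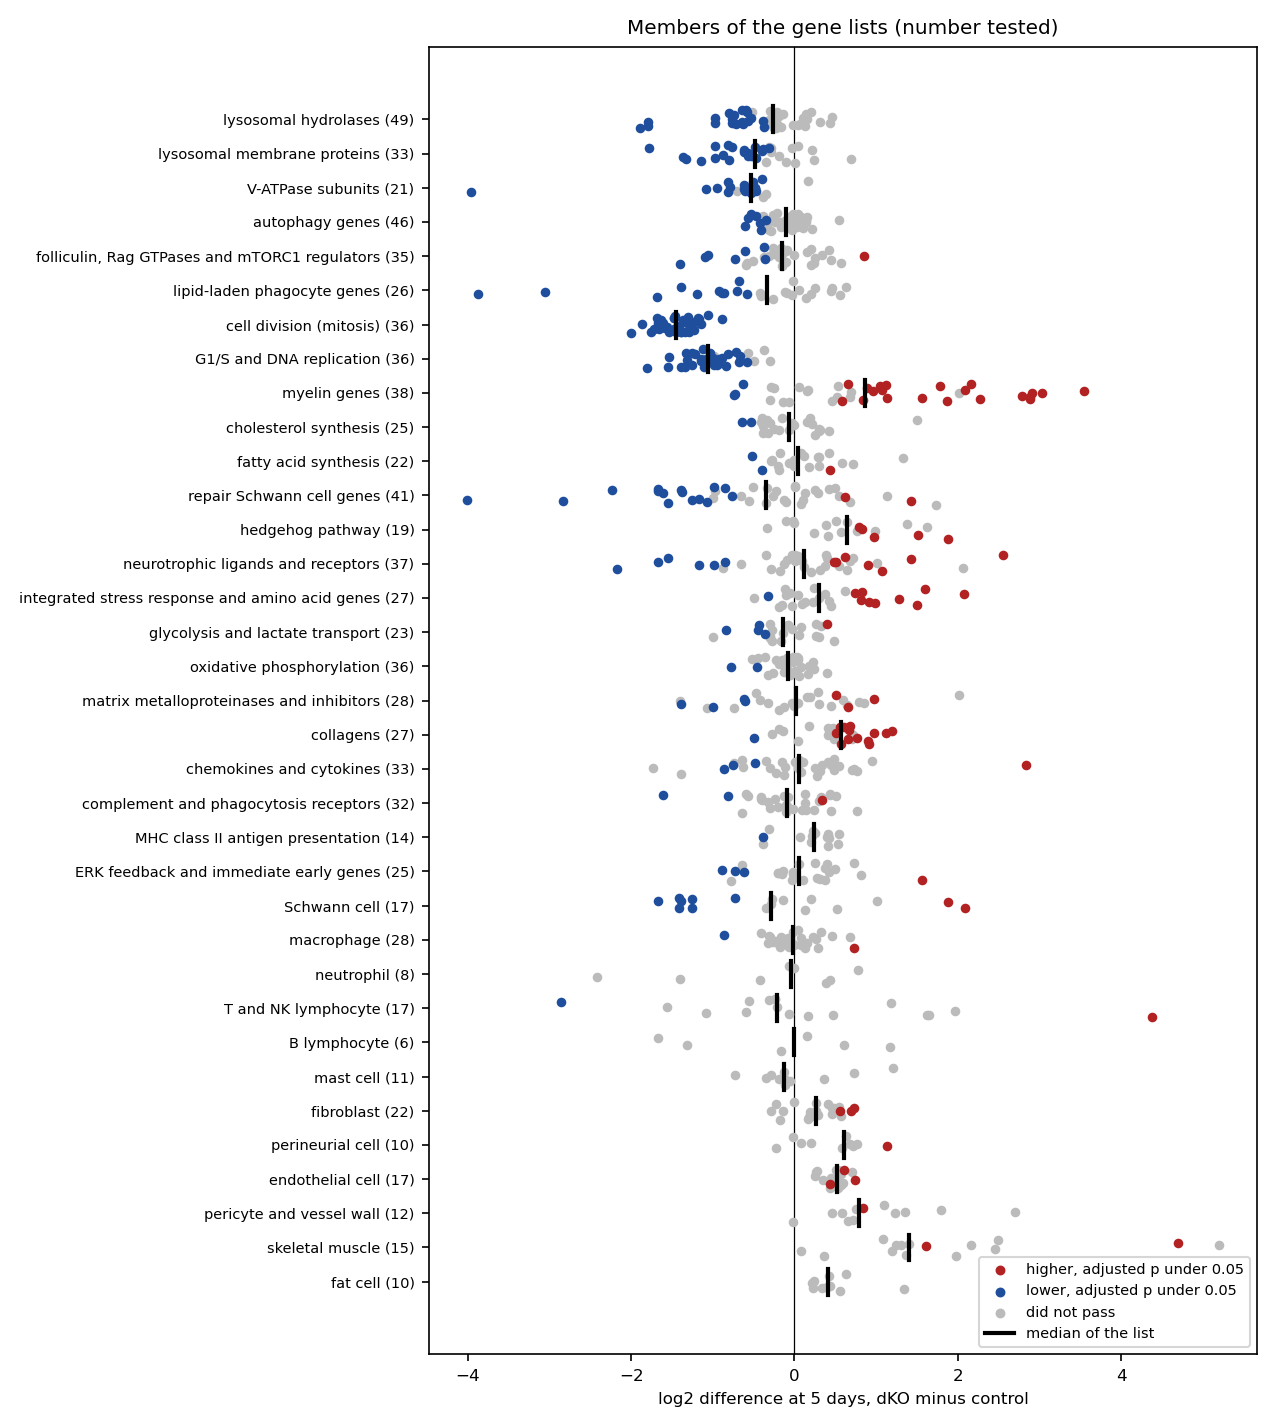
The log2 difference of dKO from control at 5 days (x axis) for each tested member of the gene lists shown (number tested in brackets), coloured by the test, with the median of each list as a bar. Mitosis genes lie between -2.00 and -0.88 with a median of -1.45, and myelin genes reach from -0.74 to 3.55 with a median of 0.86.

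The difference between genotypes was tested against that in intact nerve with the interaction term of the same fit, which took intact and cut nerves as independent. The term was positive for 165 models (0.737%) and negative for 485 (2.17%). By list, 18 of 38 myelin genes had a positive term and 0 a negative one. Negative terms were found for 15 of 36 mitosis genes, 13 of 36 replication genes, 9 of 49 lysosomal hydrolases, 9 of 33 lysosomal membrane proteins, 6 of 21 V-ATPase genes and 10 of 41 repair genes, and positive ones for 0, 0, 0, 0, 0 and 1. All 3 dKO libraries at 5 days belonged to the second library set and all intact libraries to the first, so this term and the library set cannot be told apart except through control replicate 4.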

How the data were processed

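PolyA RNA of sciatic nerve gave 12 libraries, that is 3 for each of 4 combinations of genotype and injury. The authors deposited raw counts per gene model for 38087 models, which were used for every test. They also deposited normalized values, a signal made by dividing counts by DESeq2 size factors, which served as an alternative. DESeq2, R 4.2.1 and mm10 are named per the submitters' processing notes. The sources used here do not name the aligner, the counter, its strand setting or the annotation. For that reason reads of overlapping genes may be shared. Of the models, 3688 carry a symbol that another model also has and were kept apart.

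Models were filtered with filterByExpr (minimum count 10), scaled with TMM and fitted with edgeR 4.0.16 in R 4.3.3 (robust quasi-likelihood, 1 mean per group, all 12 libraries), with Benjamini-Hochberg adjustment and a threshold of 0.05. CPM values use the TMM-scaled library size, and differences from control replicate 4 use log2 CPM with a prior count of 2. The normalized values were tested with limma 3.58.1 on log2(value + 1), a scale that understates changes of low genes. DESeq2 1.42.0 was another alternative. The fitting script was tested on simulated data, where the share of false calls lay above the threshold and small changes were often missed. Where nothing names the animals, p-values measure only the spread between these libraries. Depth at 5 days was 15430999 to 31176640 counts, which limits the precision for models of a few CPM.

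Named genes were the factors, Dhh, the 15 largest rises and falls, and up to 4 genes per list with the smallest p. The largest had to pass the test, have a mean log2 CPM of at least 3, groups without overlap, at least 0.5 of the change against control replicate 4 and no predicted model. Other list members were named after their values were seen. The comparison and the 39 lists (871 genes) were chosen with earlier results of these data known. Gene positions are those of GENCODE M21, matched by symbol. Promoters are those of RefSeq for GRCm38.p6.

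Control and dKO libraries at 5 days share the replicate numbers 2 and 4. Their deviations from the group means correlated at -0.05 and -0.21, and the labels do not say that a number marks a shared litter or day. Intact and cut nerves share numbers 1 and 2 in controls and 2, 3 and 4 in dKO mice. Whether these nerves came from the same animals is not stated, and the fit took all libraries as independent. Control number 1 had an Xist count of 3 and 3068 Y-linked reads in intact nerve, against 10712 and 244 at 5 days. The alternatives were other scalings, filters, thresholds and tools, the 6 libraries at 5 days alone, the library set as a term, a block for the replicate number, and fits that leave out 1 library each. A few genes are not reported here by name and are included in the counts.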

Additional observations from a re-analysis of the deposited data

Results flagged for a closer look

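For 65 named genes the log2 difference between dKO and control at 5 days differed from that in intact nerve by the interaction term of the edgeR fit, with adjusted p-values from 2.21e-09 (Lgals3) to 0.0418 (Gapdh). Values in brackets are that term, the difference at 5 days minus the difference in intact nerve. All dKO libraries at 5 days belong to the second library set and no intact library does, and the part of the set in these terms was not tested.

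Among myelin genes and their regulator the terms were positive: Mag (2.859), Prx (2.808), Pmp2 (2.938), Ncmap (3.681), Cldn19 (2.23), Cdh1 (3.245) and Egr2 (1.423). Positive terms were also found for Dhh (1.547) and Scube3 (1.56) of the hedgehog pathway, for Aldh1l2 (1.625) and Pycr1 (1.091) of amino acid and folate metabolism, and for the collagens Col5a3 (0.8073) and Col16a1 (0.8799). Other genes with positive terms were Spnb5 (4.048), Nptx2 (3.347), Cdsn (2.586), Sostdc1 (2.675), Kif19a (2.571), Egfl8 (2.725), Hbegf (2.555) and Ephb6 (2.362).

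Lysosomal genes had negative terms. They were the enzymes and cofactors Gla (-1.608), Lipa (-1.754), Psap (-1.843) and Tpp1 (-0.6972), the membrane proteins Gpr137b (-1.609), Abcb9 (-1.46), Mfsd1 (-0.7959) and Scarb2 (-1.216), the V-ATPase subunits Atp6v0d2 (-3.68), Atp6v1b2 (-1.032), Atp6v0c (-0.8124) and Atp6v0b (-0.8879), and the autophagy receptor Sqstm1 (-0.7522). Genes of lipid-laden phagocytes with negative terms were Lgals3 (-4.024), Gpnmb (-2.038), Nceh1 (-1.664) and Fabp5 (-1.06).

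Negative terms in cell division were those of Racgap1 (-1.667), Mki67 (-1.154), Prc1 (-1.202) and Pbk (-2.739) in mitosis and of Rrm2 (-1.692), Cdc45 (-1.38), Mcm5 (-1.001) and Pcna (-1.026) in DNA replication. Of the genes of repair Schwann cells and of support for neurons, Ngfr (-1.148), Sox2 (-1.305), Hmga2 (-3.973), Igfbp2 (-3.381), Ptn (-2.055) and Gfra1 (-0.8172) had negative terms.

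The remaining negative terms were those of Eef1a2 (-4.499), Fgfbp3 (-2.934), C1ql3 (-1.878), Crym (-3.113), Car2 (-2.253), Aspa (-2.203), Dusp10 (-2.546), Sytl2 (-2.439), Gapdh (-0.9351), Adamts5 (-1.394), Tgfb1 (-0.9797), Pros1 (-0.8166) and Fosl1 (-1.315). Fosl1 passed the test at 5 days in 2 of the 6 fits that leave out 1 library each. It shares 57.2% of its exon length with Ccdc85b on the other strand, so its reads are uncertain.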

How the results depend on the processing

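With all settings kept, 699 models were higher and 2008 lower. The count of higher models was 1266 with DESeq2, 1075 with upper-quartile factors, 252 at an adjusted p under 0.01 and 267 with a log2 difference of at least 1. The count of lower models was 991 and 549 with these 2 stricter rules. With the library set as a term the counts were 145 and 370. With the replicate number as a block, which does not pair the libraries by anything the labels state, they were 349 and 1037. Leaving out 1 library gave 385 to 1421 higher and 1173 to 2804 lower models; the highest counts came without control replicate 4, and the lowest without dKO replicate 2 (higher) and dKO replicate 3 (lower). DESeq2 size factors in edgeR, the authors' normalized values, limma-voom, other count filters and the 6 libraries alone kept both counts within 1.5 times (573 to 1011 higher and 1399 to 2208 lower). The cause of these shifts was not tested. No named gene that passed changed direction under these settings. List medians near 0 did change sign with the scaling: those of autophagy, cholesterol synthesis, oxidative phosphorylation, complement and MiT/TFE genes under upper-quartile factors, and those of macrophage, neutrophil and B lymphocyte markers under 1 or more scalings. Of 297 named or called list genes 222 passed in all 6 fits that leave out 1 library. Depth limits calls for models of a few CPM, and 1 control library of the second set limits how far library set and genotype can be told apart.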

Other observations

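Some genes outside the lists differed as well; they were picked after their values were seen, and each passed with every library left out in turn. Among genes of axon and Schwann cell contact, Cadm3, an adhesion molecule (1.95, SE 0.14, adjusted p = 7.69e-07), Gldn, gliomedin of the nodes of Ranvier (1.08, adjusted p = 0.000727), and Lgi1 (1.70, adjusted p = 4.66e-05) were higher in dKO nerve by edgeR's test. Gpr37l1, a receptor of glial cells (1.61), and Fgf1, a fibroblast growth factor (1.51, adjusted p = 0.000418), were higher too. Lower genes included Vim, the intermediate filament vimentin (-1.22, adjusted p = 2.85e-05), Met, the receptor of hepatocyte growth factor (-1.96, adjusted p = 0.000524), the stress genes Gadd45a (-2.26) and Gadd45b (-2.19), and Ezh2, a histone methyltransferase (-1.12, adjusted p = 6.43e-05).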
